A study of Homo sapiens with 18 samples.

Results

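The IFIT and IFI44 genes are 2 small families of interferon-induced genes, followed here in acute myeloid leukaemia cell lines treated with an inhibitor of the phosphatase SHP2. The members were the 6 rows of the deposited table whose Ensembl IDs map to the symbols IFIT1, IFIT2, IFIT3, IFIT5, IFI44 and IFI44L, of 40184 gene IDs in all. They were picked because their levels without drug and their changes with the inhibitor in these libraries were already known. Those values are therefore given as a description, with no test.

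RNA-seq was measured in 3 human lines, each exposed for 24 h to the vehicle DMSO or to RMC-4550 at 500 nM, in 3 biological replicates per group and 18 libraries in all. RMC-4550 is an allosteric inhibitor of SHP2, the phosphatase encoded by PTPN11 that relays receptor tyrosine kinase signals to RAS. Molm-14 and MV4-11 carry FLT3-ITD, an internal tandem duplication in the receptor kinase FLT3, and were grown in RPMI medium with serum. SKNO-1 carries the mutation N822K in the receptor kinase KIT and was grown in the same medium with GM-CSF at 10 ng/mL, in both the DMSO and the RMC-4550 cultures, so that line and growth factor cannot be told apart. Each line is a single established line, and the labels' protocols name no added interferon. Levels are in CPM, reads adjusted for library size. Read totals were 17434810 to 19959917 per library. Where the lines are not named beside values, the order is Molm-14, then MV4-11, then SKNO-1. The share of reads in 15 mitochondrially encoded genes was 10.5 to 14.99% in 4 libraries (the treated Molm-14 replicate 2, the DMSO replicates 1 and 3 of MV4-11, and the treated MV4-11 replicate 1) and 5.06 to 7.004% in the other 14. The members' changes without these 4 libraries are in the plot of log2 changes, and for other genes named as called in a line the value without them is given where it moved by over 1.5 times. Without these libraries MV4-11 keeps a single DMSO library (replicate 2), so only sizes of change are given from that fit. Of 8 myeloid markers, all 8 were in the table, with a summed level of 1314 to 1932 CPM per library. Not all were high in each line: with DMSO, KIT had 0.333, 0.115 and 0.167 CPM in Molm-14. With DMSO, MPO had 3.17, 3.17 and 4.40 CPM in Molm-14 and 1.45, 1.79 and 1.08 CPM in MV4-11. In SKNO-1 with DMSO, MPO had 315.2, 315.8 and 321.4 CPM. CD3D, CD3E, CD3G, CD2 and MS4A1 (T and B cell genes), EPCAM, CDH1 and KRT19 (epithelial genes) and CLEC4C (plasmacytoid dendritic cells) were at or near 0 reads.

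Type I interferons bind the receptor IFNAR1 and IFNAR2, whose kinases JAK1 and TYK2 phosphorylate STAT proteins. Together with IRF9 the STATs form the complex ISGF3, which binds the interferon-stimulated response element (ISRE) in the promoters of interferon-induced genes. The IFIT proteins carry tetratricopeptide repeats: IFIT1 binds viral RNA whose cap lacks the methyl mark of host messages, IFIT2 and IFIT3 form complexes with it, and IFIT5 binds RNA with a 5′ triphosphate. IFI44 and IFI44L are a pair of related interferon-induced proteins, both reported to restrain the interferon response as well as virus growth. Some of these genes, IFIT1 and IFIT2 among them, can also be turned on without interferon, by IRF3 acting on the same element.

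The 6 genes sit in 2 clusters, all on the plus strand (GENCODE 29, GRCh38). On chromosome 10, IFIT2 lies at 89283694 to 89309276, IFIT3 at 89327894 to 89340971, IFIT1 at 89392546 to 89406486 and IFIT5 at 89414586 to 89421001. On chromosome 1, IFI44L lies at 78619922 to 78646145 and IFI44 next to it at 78649796 to 78664078. LIPA, a lysosomal lipase gene on the opposite strand, overlaps IFIT1, IFIT2 and IFIT3, and 65 of the exon bases of IFIT2 (1.585%) overlap with its exons. The non-coding gene AL353751.1 shares 356 exon bases with IFIT2 and had at most 5 reads in a library. Whether the counting used strand is not given in the sources used here. The pseudogenes IFIT1P1 and IFIT6P had 1 to 9 and 0 to 2 reads per library.

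The promoters are shown because ISGF3 binds the ISRE in the promoters of interferon-induced genes. RefSeq's promoter table (GRCh38.p14) held 5 of the 6 members; IFIT2 is named only. The sequences below run from 170 bases before the gene's first RefSeq start to 10 bases after it, and capitals mark each match to the ISRE core, TTTCNNTTTC on the gene's strand or GAAANNGAAA for the opposite strand.
IFIT1 (chr10:89392453-89392632, plus strand): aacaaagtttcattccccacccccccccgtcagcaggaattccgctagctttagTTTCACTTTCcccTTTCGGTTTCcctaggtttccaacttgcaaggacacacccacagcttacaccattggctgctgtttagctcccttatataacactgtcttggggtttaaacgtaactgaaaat
IFIT3 (chr10:89327827-89328006, plus strand): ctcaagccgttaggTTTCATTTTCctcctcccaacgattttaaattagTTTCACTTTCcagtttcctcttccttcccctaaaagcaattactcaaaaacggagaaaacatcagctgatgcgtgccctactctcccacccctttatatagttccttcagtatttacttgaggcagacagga
IFIT5 (chr10:89414398-89414577, plus strand): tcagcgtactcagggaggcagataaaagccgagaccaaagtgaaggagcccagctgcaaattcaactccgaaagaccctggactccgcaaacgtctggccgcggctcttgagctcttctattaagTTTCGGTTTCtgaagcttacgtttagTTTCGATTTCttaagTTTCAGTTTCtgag
IFI44 (chr1:78649619-78649798, plus strand): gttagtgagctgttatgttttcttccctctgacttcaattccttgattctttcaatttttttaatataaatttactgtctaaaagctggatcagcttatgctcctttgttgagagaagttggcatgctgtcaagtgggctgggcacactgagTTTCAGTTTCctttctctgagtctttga
IFI44L (chr1:78620278-78620457, plus strand): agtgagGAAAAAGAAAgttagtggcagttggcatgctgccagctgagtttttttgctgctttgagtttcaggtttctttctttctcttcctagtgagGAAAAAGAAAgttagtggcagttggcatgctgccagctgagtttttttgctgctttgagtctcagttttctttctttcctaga

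Every one of these 5 windows held at least 1 match to the core. IFIT1 had 2 matches, from −116 and from −103, separated by 3 bases, and IFIT3 had 2, from −156 and from −122. IFIT5 had 3, from −45, −19 and −4, the last of which runs across the start. IFI44 had a single match from −18. In IFI44L the 2 matches, from −164 and from −73, were on the opposite strand and were copies of each other, since a stretch of 85 bases at −189 to −105 recurs at −98 to −14. At a second listed start, IFIT3 had matches from −94 and −51, and IFI44 had the same match, now from −60. Over all 35116 RefSeq promoters of 300 bases, 3.57% held at least 1 match and 0.259% held at least 2, with both strands searched. The gamma-activated site TTCNNNGAA, which STAT dimers bind, was held by 7.66% of promoters and had no match in the members' windows. The members' windows are shorter than these promoters of 300 bases, so the shares are not for an equal length. A match describes the letters and is not a measurement of binding.

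With RMC-4550, every member was higher in every line, in all 3 treated libraries compared with all 3 DMSO libraries. The same pattern, every treated library above every DMSO library, was found for 26.9% of the genes tested in Molm-14, 11.1% of those in MV4-11 and 26.6% of those in SKNO-1. The members were chosen on this contrast, so nothing is read from their count. The median log2 change over the 6 members was 1.82 for Molm-14, 4.69 for MV4-11 and 2.57 for SKNO-1, against −0.06, −0.01 and −0.05 over all genes tested. IFIT5 had the smallest change of the 6 in each line. IFI44L had the highest log2 change in Molm-14 and MV4-11, and IFIT1 in SKNO-1. The place of IFI44L in Molm-14 rests on few DMSO reads: on the log2(CPM + 1) scale it changed by 1.48 there, less than IFIT3 (1.97) and IFIT1 (1.65). In bulk RNA, a rise in all cells and a large rise in some cells cannot be told apart.

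**Figure D1:**
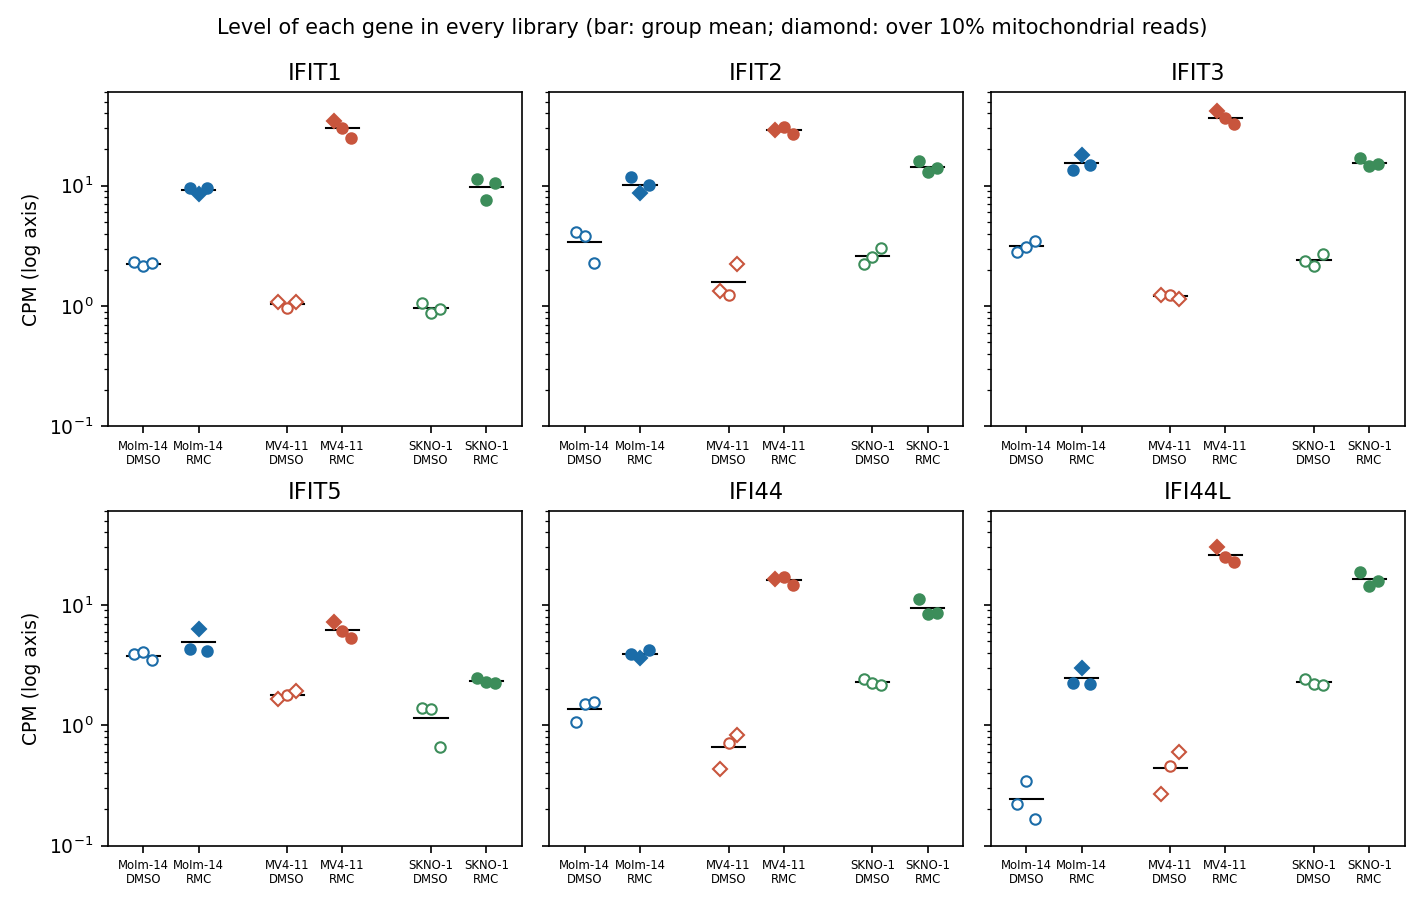
CPM of each gene in every library on a log axis, by line and treatment; open points are DMSO, filled points RMC-4550, black bars group means (n = 3), and diamonds the 4 libraries with over 10% mitochondrial reads. Filled points lie above open points in every panel and line, by the smallest margin for IFIT5 in Molm-14, and the MV4-11 points with RMC-4550 are at the top of each panel, shared with Molm-14 for IFIT5.

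IFIT1, the cap sensor, stood at 2.33, 2.13 and 2.28 CPM in the 3 Molm-14 libraries with DMSO and at 9.57, 8.46 and 9.62 CPM with RMC-4550. In MV4-11 it went from 1.08, 0.972 and 1.08 CPM to 34.2, 30.3 and 25.1 CPM, and in SKNO-1 from 1.06, 0.872 and 0.942 CPM to 11.4, 7.56 and 10.5 CPM. The groups did not overlap in any line, and the DMSO libraries of MV4-11 and SKNO-1 overlapped with each other. The ratio of mean CPM was 4.09, 28.7 and 10.3. On the log2 scale the changes were 2.02, 4.80 and 3.31, each with a standard error of 0.16. Only 57 reads over 3 libraries lay behind the DMSO level in MV4-11 (1741 with RMC-4550), and the ratio from summed reads had a 95% counting interval of 22.04 to 38.04.

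IFIT2 binds AU-rich RNA and is linked to cell death. Its CPM was 4.11, 3.81 and 2.28 with DMSO and 11.9, 8.65 and 10.1 with RMC-4550 in Molm-14. In MV4-11 it was 1.35, 1.23 and 2.21 with DMSO and 28.99, 30.5 and 26.9 with RMC-4550, and in SKNO-1 2.22, 2.57 and 3.01 and then 16.2, 12.99 and 13.98. Replicate 3 stood apart in both FLT3-ITD lines with DMSO, low in Molm-14 and high in MV4-11. The log2 change was 1.61, 4.20 and 2.46 (SE 0.23). In MV4-11 it was 4.51 without the libraries over 10% mitochondrial reads, which include that replicate. The value of 4.51 rests on a single DMSO library, replicate 2.

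IFIT3, which stabilises IFIT1 and bridges it to other partners, had 2.83, 3.11 and 3.45 CPM with DMSO and 13.4, 17.8 and 14.8 CPM with RMC-4550 in Molm-14. The MV4-11 libraries went from 1.24, 1.23 and 1.14 CPM to 41.4, 36.3 and 32.7 CPM. Those of SKNO-1 went from 2.35, 2.16 and 2.73 CPM to 16.9, 14.5 and 15.2 CPM. With RMC-4550 the libraries of Molm-14 and SKNO-1 overlapped, while all 3 of MV4-11 were higher. The log2 changes were 2.27, 4.90 and 2.68 (SE 0.14), and the ratios of mean CPM 4.89, 30.7 and 6.44.

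IFIT5 moved least of the members. In Molm-14 it had 3.89, 4.04 and 3.45 CPM with DMSO and 4.26, 6.34 and 4.13 CPM with RMC-4550, so the groups were separated by 4.13 against 4.04 CPM. The high value was replicate 2, the library with 14.99% mitochondrial reads. The log2 change in Molm-14 was 0.35 (SE 0.25), and 0.15 without that library. In MV4-11 the CPM went from 1.67, 1.79 and 1.92 to 7.18, 6.13 and 5.28, a log2 change of 1.77. In SKNO-1 it went from 1.38, 1.38 and 0.659 to 2.45, 2.27 and 2.25, a log2 change of 1.09. Replicate 3 with DMSO held 14 reads there against 30 in each of the others, and the change was 0.74 without it.

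IFI44 had 1.06, 1.499 and 1.56 CPM with DMSO and 3.94, 3.65 and 4.24 CPM with RMC-4550 in Molm-14. In MV4-11 it had 0.431, 0.716 and 0.838 CPM (8, 14 and 14 reads), and with RMC-4550 16.3, 17.1 and 14.7 CPM. In SKNO-1 it had 2.45, 2.25 and 2.17 CPM and then 11.2, 8.44 and 8.55 CPM. MV4-11 thus had the lowest level of the 3 lines with DMSO and the highest with RMC-4550, with no overlap between lines in either condition. The log2 changes were 1.52, 4.59 and 2.02 (SE 0.22).

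IFI44L, its neighbour, was near the floor in the FLT3-ITD lines with DMSO. It had 4, 6 and 3 reads in Molm-14 (0.222, 0.346 and 0.167 CPM) and 5, 9 and 10 reads in MV4-11 (0.269, 0.460 and 0.598 CPM). In SKNO-1 it stood at 2.45, 2.20 and 2.17 CPM, above every library of the other lines. With RMC-4550 it reached 2.24, 3.01 and 2.21 CPM in Molm-14, 30.2, 25.01 and 22.7 CPM in MV4-11 and 18.9, 14.3 and 15.9 CPM in SKNO-1. The treated Molm-14 libraries were thus at about the level that SKNO-1 had with DMSO. The ratio of mean CPM was 10.1, 58.7 and 7.20. Few reads stand behind the larger ratios: the 95% counting interval from summed reads was 5.69 to 19.5 in Molm-14 and 39.6 to 92.7 in MV4-11. Such intervals cover counting error only, since reads copied by PCR are not independent molecules. On the log2 scale the changes were 3.24, 5.85 and 2.83 (SE 0.27).

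**Figure D2:**
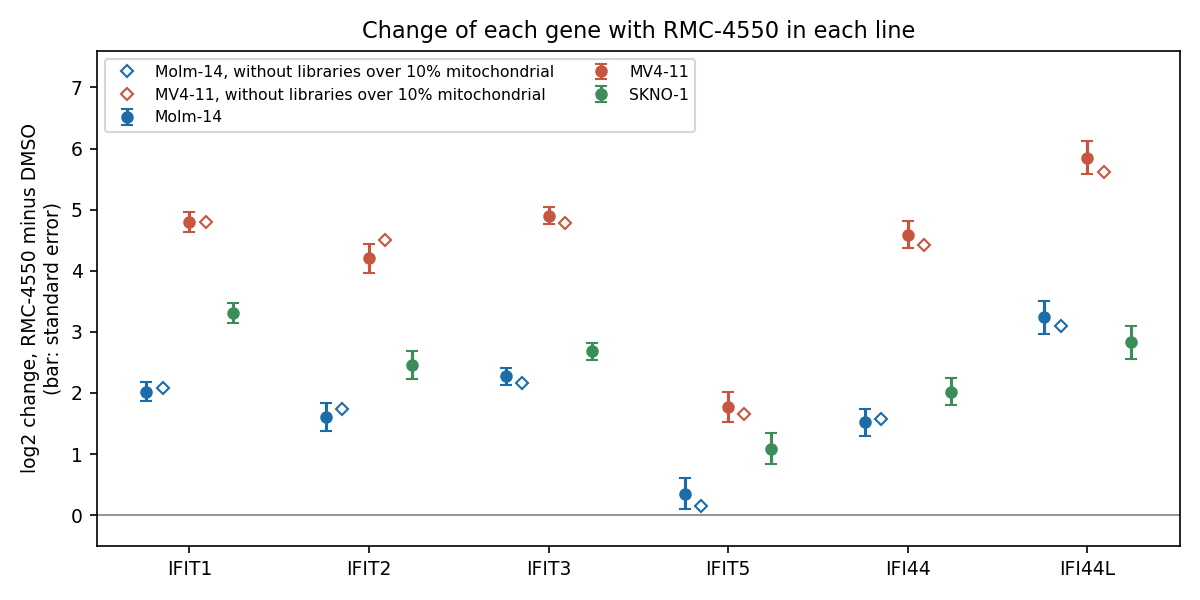
log2 change with RMC-4550 of each gene and line (filled circles; bars are standard errors from the fit over 18 libraries); open diamonds are the changes in the FLT3-ITD lines without the 4 libraries with over 10% mitochondrial reads. MV4-11 lies above the other lines for each gene, from 1.77 for IFIT5 to 5.85 for IFI44L, and IFIT5 in Molm-14 is the value nearest 0. The MV4-11 diamonds rest on a single DMSO library, replicate 2.

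The filter on low values let some members through by their treated libraries alone. In MV4-11, IFI44 and IFI44L had no DMSO library at 1 CPM, and in Molm-14 IFI44L had none. IFIT1 had 2 of 3 DMSO libraries at 1 CPM in MV4-11 and 1 of 3 in SKNO-1, and IFIT5 had 2 of 3 in SKNO-1. The other combinations of gene and line had all 3.

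The order of the lines was not the same before and after the inhibitor. With DMSO, IFIT1, IFIT2, IFIT3 and IFIT5 were highest in Molm-14, whose libraries lay apart from those of the next line except for IFIT2, where they overlapped with SKNO-1. IFI44 and IFI44L were highest in SKNO-1, apart from the next line. With RMC-4550 all 6 had their highest mean in MV4-11. For 5 of them the MV4-11 libraries lay apart from the next line, and for IFIT5 they overlapped with Molm-14. SKNO-1 came after MV4-11 for every gene but IFIT5, overlapping with Molm-14 for IFIT1 and IFIT3.

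Levels of different genes were compared per kb of exon. IFIT3 had the highest level per kb in Molm-14 in both conditions (1.19 ± 0.118 CPM per kb with DMSO and 5.80 ± 0.856 with RMC-4550; SD, n = 3). In MV4-11 with DMSO, IFIT3, IFIT5, IFIT2 and IFI44 followed each other with overlapping libraries, at 0.455, 0.446, 0.389 and 0.325 CPM per kb. With RMC-4550 IFIT3 stood apart there at 13.9 ± 1.65, before IFI44 (7.86), IFIT2 (7.02) and IFIT1 (6.48), whose libraries overlapped in this order. IFIT5 went from the second place in MV4-11 to the last, at 1.54 ± 0.238 CPM per kb. In SKNO-1 IFI44 came first with DMSO (1.12 ± 0.0704 CPM per kb), and IFIT3 with RMC-4550 (5.89 ± 0.473), overlapping with IFI44. IFI44L was last in Molm-14 in both conditions and in MV4-11 with DMSO. Its place depends on the length used, because its exons cover 10240 bases in all and 5874 bases in its longest transcript; with the longest transcript of each gene, neighbouring places changed in Molm-14 with RMC-4550 (IFI44 before IFIT1) and in SKNO-1 (IFI44L before IFIT5 with DMSO and before IFIT1 with RMC-4550).

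**Figure D3:**
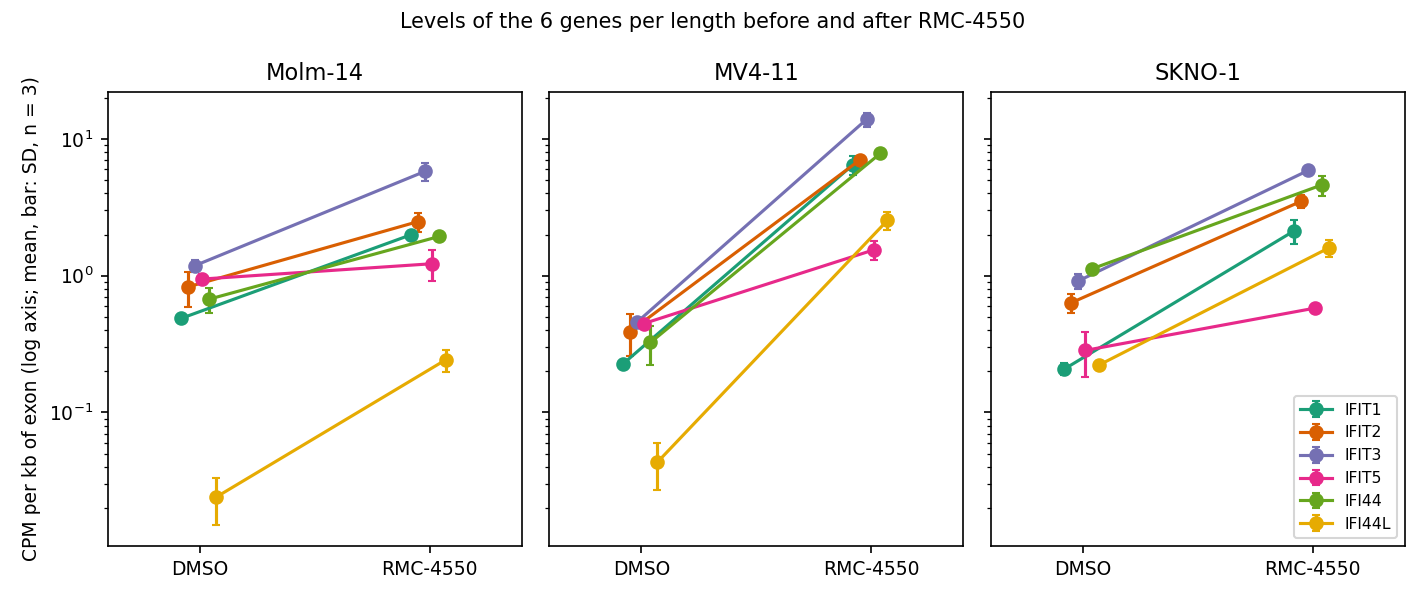
CPM per kb of exon for the 6 genes with DMSO and with RMC-4550 in each line, on a log axis (points are means, bars SD, n = 3). The line of IFIT5 is the flattest in each panel, and in MV4-11 it falls from the second place to the last, while IFIT3 is first or shares the top in all groups but SKNO-1 with DMSO, where IFI44 is first.

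The genes that make, receive and limit the interferon signal were then read from the same fit. Lists of ligands, receptors and relay, regulatory factors, sensors and brakes held 60 genes, of which 48 were in the table and 32 to 33 passed the filter in a line. Calls are those of limma's moderated test with a Benjamini-Hochberg adjusted p, over all genes tested, of less than 0.05. For Molm-14 the test called 11 of 32 higher and 3 lower, against a background of 21.5% higher and 25.2% lower over all genes. For MV4-11 it called 11 of 33 higher and none lower, against 5.85% and 8.03%. For SKNO-1 it called 14 of 33 higher and 4 lower, against 10.8% and 16.2%. The median log2 change over these genes was 0.15, 0.23 and 0.30, against −0.06, −0.01 and −0.05 over all genes tested. No count is given from the fit without the libraries over 10% mitochondrial reads, which left MV4-11 a single DMSO library.

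Among the ligands, 9 of 21 interferon genes were in the table, none passed the filter, and 7 had at most 3 reads in any library; the other 12 were not analysed here. IFNB1, the interferon beta gene, had 0, 0 and 2 reads in MV4-11 with DMSO and 4, 6 and 4 with RMC-4550. In the other lines it had at most 2 reads in a library. IFNW1 had 5 reads in the treated Molm-14 replicate 2 and at most 1 in every other library. No level can be compared at this depth.

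Of 11 receptor and relay genes tested, 4 were higher and 1 lower in Molm-14, 3 higher in MV4-11, and 1 higher and 2 lower in SKNO-1. Over all genes tested, 21.5% were called higher and 25.2% lower in Molm-14, 5.85% and 8.03% in MV4-11, and 10.8% and 16.2% in SKNO-1. IRF9, the DNA-binding part of ISGF3, was called higher in all 3 lines. Its mean level went from 5.89 to 12.3 CPM for Molm-14 (log2 change 1.05, SE 0.16, adjusted p = 6.6e-05 in limma). For MV4-11 it went from 11.6 to 23.8 CPM (1.06, adjusted p = 0.00027), and for SKNO-1 from 11.0 to 15.5 CPM (0.49, adjusted p = 0.029). The SKNO-1 call was lost in 5 of the 6 fits that left out 1 of its libraries. STAT2 was higher in MV4-11 (0.59), and TYK2 (0.50), IFNGR2 (0.28) and IL10RB (0.62) in Molm-14. IFNGR1 was lower in SKNO-1 (−0.28) and Molm-14 (−0.21), and IFNGR2 was lower in SKNO-1 (−0.22). Leaving out single libraries ended the call of IL10RB in 12 of 18 fits, and those of STAT2, IFNGR1 and the SKNO-1 call of IFNGR2 in 3 to 5 of the 6 fits without a library of the line. IFNAR1, IFNAR2, JAK1 and JAK2 were not called in any line.

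IRF7, the factor that amplifies interferon alpha production and is itself interferon-induced, was called higher in all 3 lines. In Molm-14 its libraries had 36.1, 41.2 and 41.6 CPM with DMSO and 98.2, 140.9 and 107.3 CPM with RMC-4550. The log2 change was 1.53 there (SE 0.18, adjusted p = 6.2e-06), against 1.26 for MV4-11 (adjusted p = 0.00018) and 0.86 for SKNO-1 (adjusted p = 0.0020). None of the 3 differences between lines passed the test, though with the mitochondrial share as a covariate those of SKNO-1 did (−0.48 against Molm-14 and −0.65 against MV4-11). IRF5 was higher in Molm-14 (0.50) and SKNO-1 (0.70), and IRF2, a repressor that competes for the ISRE, was lower in SKNO-1 (−0.30) and Molm-14 (−0.57). IRF1, IRF3, IRF4 and IRF8 were not called.

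Of 8 sensors and relay genes tested, 2 were higher and 1 lower in Molm-14, 4 higher in MV4-11, and 6 higher and 1 lower in SKNO-1. The shares of all genes called higher and lower were 21.5% and 25.2% in Molm-14, 5.85% and 8.03% in MV4-11, and 10.8% and 16.2% in SKNO-1. IFIH1, which encodes the RNA sensor MDA5, had a log2 change of 1.51 in MV4-11 (adjusted p = 8.1e-06), while the SKNO-1 change was 0.57 (adjusted p = 0.012; lost without treated replicate 1). Its Molm-14 value was 0.03 (adjusted p = 0.89). The RNA sensor RIGI changed by 0.89 in MV4-11 and 0.66 in SKNO-1, and its value in Molm-14 was −0.05 (adjusted p = 0.81). For both, Molm-14 differed from MV4-11 in limma's test of the difference (−1.48, adjusted p = 0.00046 for IFIH1; −0.95, adjusted p = 0.011 for RIGI). DHX58 was higher in all 3 lines (0.58, 0.84 and 0.52), as was MAVS, the mitochondrial adaptor of both sensors (0.68, 0.27 and 0.25). CGAS, the DNA sensor, fell in Molm-14 (−0.73, adjusted p = 2.8e-05) and was higher in SKNO-1 (0.28, adjusted p = 0.047). Its adaptor STING1 rose in SKNO-1 (0.64). TBK1, the kinase below both routes, was called lower in SKNO-1 (−0.30, adjusted p = 0.041 in limma). Its groups overlapped there, with 65.6, 61.2 and 54.2 CPM with DMSO and 55.7, 43.0 and 48.6 CPM with RMC-4550. In SKNO-1 the calls of CGAS and TBK1 were lost in 15 and 9 of 18 fits without a library, and that of DHX58 in 5 of 6 without one of its own; for MAVS in MV4-11 it was 3 of 6.

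Of 7 brakes on the pathway, 3 were called higher for Molm-14, 3 for MV4-11 and 5 for SKNO-1, with none lower, beside 21.5%, 5.85% and 10.8% of all genes called higher. SOCS1, which inhibits JAK kinases, had log2 changes of 1.66, 1.26 and 1.08, all called. ISG15, a ubiquitin-like protein that stabilises USP18, had 0.82, 2.36 and 1.35, all called, and like the members it is itself interferon-induced. USP18, which blocks IFNAR2 signalling, rose in MV4-11 from 3.90 to 13.4 CPM (1.78, adjusted p = 3.4e-05) and was higher in SKNO-1 (0.65, adjusted p = 0.031; lost in 5 of 6 fits without one of its libraries), with 0.13 in Molm-14 (adjusted p = 0.62). SOCS3 was higher in Molm-14 (0.85) and SKNO-1 (0.96), and PTPN2 in SKNO-1 (0.42). PTPN6 and PIAS1 were not called.

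**Figure D4:**
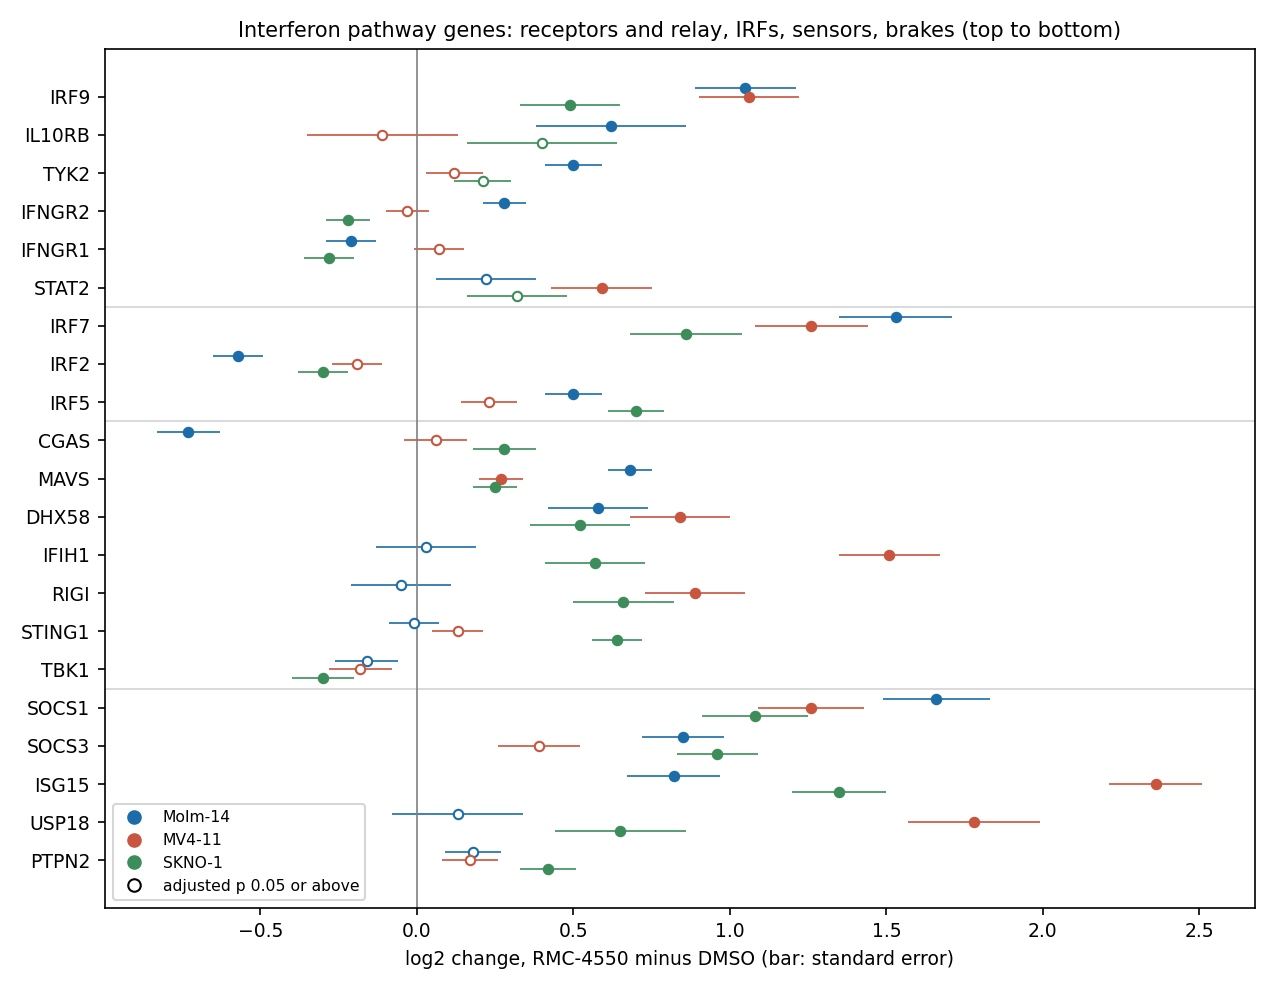
log2 change with RMC-4550, with standard error bars, of named pathway genes called in at least 1 line, grouped from top to bottom as receptors and relay, regulatory factors, sensors and brakes; filled points passed limma's test in that line and open points did not. IRF9, IRF7, MAVS, DHX58, SOCS1 and ISG15 are filled in all 3 lines, and the MV4-11 points of IFIH1 and USP18 (1.51 and 1.78) lie to the right of those of the other lines.

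The response of the 33 pathway genes differed between Molm-14 and MV4-11 for 10 genes, against 17.6% of all genes. The log2 change was higher in Molm-14 for 3 of them and in MV4-11 for 7. Among the 7, CGAS and IRF2 were called lower in Molm-14 and were not called in MV4-11. The response differed between SKNO-1 and Molm-14 for 4 genes (background 9.62%), and between SKNO-1 and MV4-11 for 3 genes (background 1.57%). These counts depend on single libraries and on the mitochondrial share, with values given under the dependence on the processing. The comparisons of lines share their samples in pairs.

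The OAS and MX genes, which encode the 2′-5′ oligoadenylate synthetases and the dynamin-like MX proteins, are the nearest family in function. Their changes were known from earlier work on these libraries too. The median log2 change was 2.05 over the 5 genes that passed the filter in Molm-14, 3.98 over 6 in MV4-11 and 2.33 over 6 in SKNO-1, beside 1.82, 4.69 and 2.57 for the 6 IFIT and IFI44 genes. They are therefore described without a test, like the members. In Molm-14 the log2 changes of OAS1, OAS2, OAS3 and OASL were 2.05, 2.32, 1.97 and 2.54. In MV4-11 they were 2.86, 3.81, 4.39 and 4.16, and in SKNO-1 1.81, 2.26, 2.40 and 2.49. MX2 changed by 1.12, 2.66 and 1.82. MX1 in Molm-14 had 11, 9 and 11 reads with DMSO and 15, 16 and 7 with RMC-4550, so its groups overlapped, as those of no IFIT or IFI44 gene did, and it did not pass the filter. It changed by 4.17 in MV4-11 and 2.66 in SKNO-1. Few DMSO reads stand behind some of these values. OASL had 8, 4 and 7 in Molm-14, and in MV4-11 OAS3 had 7, 14 and 8 and MX1 8, 11 and 14. In those lines these genes passed the filter by their treated libraries alone.

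A wider list of 26 interferon-induced genes was called higher for 10 of 24 tested in Molm-14, with 1 lower, BST2 (−0.71, and −0.37 without the library over 10% mitochondrial reads). It was called higher for 23 of 26 in MV4-11 and 22 of 26 in SKNO-1. IFIH1, also listed among the sensors, was among those called in MV4-11 and SKNO-1. Over all genes 21.5%, 5.85% and 10.8% were called higher. The largest changes were IFI6 (2.30), RSAD2 (1.74) and IFITM1 (1.67) in Molm-14, EPSTI1 (4.96), CMPK2 (3.52) and IFI6 (2.86) in MV4-11, and EPSTI1 (3.76), CMPK2 (1.84) and DDX60 (1.84) in SKNO-1. The EPSTI1 values (SE 0.65) rest on few DMSO reads, 4, 4 and 3 in MV4-11 and 6, 9 and 6 in SKNO-1. In both lines EPSTI1 passed the filter by its treated libraries alone. In limma's test of the difference, 17 of 26, IFIH1 among them, had a higher log2 change in MV4-11 than in Molm-14, and none the reverse. Of all genes, 17.6% differed in either direction. Of the genes biased to interferon gamma, 3 of 4 tested were higher in Molm-14, 2 of 5 in MV4-11 and 2 of 4 in SKNO-1. That list held 10 genes, 9 of them in the table, and those not tested were below the filter. SOCS1, also listed among the brakes, was among those called in each line. The largest values of that list in Molm-14 were SOCS1 (1.66), GBP5 (−1.03, adjusted p = 0.069, not called) and GBP2 (0.56). In MV4-11 they were CIITA, the switch for MHC class II genes (1.62), SOCS1 (1.26) and GBP4 (1.02, adjusted p = 0.18, not called). In SKNO-1 they were CIITA (2.28), SOCS1 (1.08) and GBP4 (0.39, adjusted p = 0.59, not called).

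The genes whose pattern was most like the members' were found by the root mean square difference over 18 libraries between each gene and the mean of the 6 members, both centred log2 values. Over 16256 genes the median of this difference was 1.66. The nearest were OAS3 (0.356), OAS1 (0.519), CMPK2 (0.701), PARP9 (0.719), SAMD9L (0.722), ABCA9 (0.772), H2AC6 (0.818) and ISG15 (0.827), and the ninth gene stood at 0.848. The members' own distances ran from 0.252 for IFIT2 to 1.19 for IFIT5 and 1.25 for IFI44L, so OAS3 lay nearer to the members' mean than 4 of the members did. In this order 6 of the 8 belong to the lists above. The other two are ABCA9, a lipid transporter gene with a mean of 0.185 to 0.279 CPM per group with DMSO and 0.940 to 1.295 with RMC-4550, and H2AC6, a histone H2A gene that went from 11.0 to 65.9, from 16.7 to 57.3 and from 17.99 to 61.3 CPM.

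Of 14 listed genes beside the 2 clusters, 12 were in the table and 8 were tested. In Molm-14 1 was called higher and 5 lower, while MV4-11 and SKNO-1 each had 2 lower and none higher, beside 25.2%, 8.03% and 16.2% of all genes called lower. KIF20B, a kinesin gene of cell division next to the IFIT cluster, was lower in all lines (−0.64, −0.80 and −0.89), as was the deubiquitinase gene USP33 near IFI44 (−0.25, −0.33 and −0.25). LIPA, which overlaps the IFIT genes on the other strand, changed by −0.71 in Molm-14 (adjusted p = 0.015; −0.43 without the library with high mitochondrial reads). Its MV4-11 value was 0.29 (adjusted p = 0.45) and its SKNO-1 value 0.14 (adjusted p = 0.70). FUBP1 (−0.55) was lower and DNAJB4 (0.45) higher in Molm-14. NEXN was called lower there (−1.19, adjusted p = 0.034), but its groups overlapped, with 73, 69 and 74 reads with DMSO and 16, 66 and 26 with RMC-4550, and the value was −1.81 without treated replicate 2. PANK1 and MIGA1 were not called. PTGFR, the prostaglandin F receptor gene beside IFI44L, was below the filter and is named after its values were seen. It had 5, 2 and 8 reads with DMSO and 27, 8 and 15 with RMC-4550 in Molm-14, 2, 1 and 1 and then 12, 16 and 9 in MV4-11, and 5, 11 and 4 and then 29, 20 and 39 in SKNO-1. In CPM every treated library of PTGFR lay above every DMSO library in each line, as for the members, though in Molm-14 by only 0.512 against 0.446 CPM. It was not tested.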

How the data were processed

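Per the labels' protocols, poly(A) RNA was captured on oligo(dT) beads, and libraries were PCR-amplified and read as DNA nanoballs. FastQC, STAR, limma and GRCh38 are named in the submitters' processing notes; the counter, annotation and filter are not given in the sources used here. The authors deposited log2 values for 40184 genes in 18 samples. From the values, each is the log2 of reads plus 0.5 in CPM of a scaled library (scaling factors 0.890 to 1.11), and undoing this gave whole reads, within 0.02, for 100% of values under 100 reads. CPM were computed from these reads. Symbols matched 40069 IDs.

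Differences were tested on the deposited log2 values with limma 3.58.1 in R 4.3.3 (eBayes with trend, two-sided), in 1 fit with 1 coefficient per group, for genes reaching 1 CPM in 3 or more libraries of the line (of either line for a difference between lines). The design had left the unit open, so the log2 values were used as they stood. The fit was also run on simulated reads, with changes set in Molm-14 only and the same spread for every gene. Such reads do not show how the test behaves on these libraries. The members and lists were chosen with earlier results of these data known. Named were the 6 members, up to 6 called genes per pathway list and line, the OAS and MX genes, the 3 largest changes per line in the wider and gamma lists, the 8 genes most like the members, and the tested neighbours. A pathway gene that enters the fit and the counts is not reported here by name. Alternatives were log2(CPM + 1), no filter, median-ratio scaling, a minimum mean of 5 CPM, separate fits, voom weights, the replicate number as a block, the mitochondrial share as a covariate, and leaving out libraries. Figures were drawn with matplotlib 3.10.9.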

Additional observations from a re-analysis of the deposited data

Results flagged for a closer look

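Responses of pathway genes that differed between lines in limma's test of the difference (log2 change with RMC-4550 in the first line minus that in the second, Benjamini-Hochberg adjusted p under 0.05) are listed here as values. For Molm-14 minus MV4-11 the difference was −1.65 for USP18, −1.53 for ISG15, −1.48 for IFIH1, −0.95 for RIGI, −0.80 for CGAS and −0.38 for IRF2. It was 0.40 for MAVS, 0.38 for TYK2 and 0.32 for IFNGR2. For SKNO-1 minus Molm-14 it was 1.01 for CGAS, 0.65 for STING1, −0.43 for MAVS and −0.50 for IFNGR2. For SKNO-1 minus MV4-11 it was −1.01 for ISG15, −0.95 for IFIH1 and 0.51 for STING1. With the mitochondrial share as a covariate, the USP18 difference between Molm-14 and MV4-11 was −1.20, still past the threshold. Some of these calls depend on the fit. With no filter and with the replicate block the calls of TYK2 and IFNGR2 (Molm-14 minus MV4-11) and of IFIH1 and STING1 (SKNO-1 minus MV4-11) were lost, as they were in 14, 11, 12 and 12 of the 18 fits without a library. The TYK2 difference was 0.27 without the libraries over 10% mitochondrial reads, a fit with a single DMSO library of MV4-11. Those of IRF2 and both MAVS differences were lost with no filter, IRF2 also in 5 fits without a library, and ISG15 (SKNO-1 minus MV4-11) in 3. The part of RNA composition in these differences was not tested further.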

How the results depend on the processing

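The members' log2 changes kept their direction in every line under all alternatives run. With log2(CPM + 1) the median over the members was 1.42, 3.72 and 2.19 (Molm-14, then MV4-11, then SKNO-1), because 1 CPM is large beside levels near 1 CPM. Leaving out 1 library of the line in turn gave 1.76 to 1.91, 4.57 to 4.80 and 2.5 to 2.67. With a separate fit per line the pathway genes called were 7 instead of 11 in MV4-11 but 27 instead of 18 in SKNO-1, and with no filter they were 11 in SKNO-1. Leaving out libraries gave 12 to 15 genes for Molm-14, 9 to 16 for MV4-11 and 10 to 20 for SKNO-1, the latter at 10 without replicate 2 and 11 without replicate 3 of SKNO-1 with RMC-4550. For differences between Molm-14 and MV4-11, no filter gave 6 instead of 10 genes, and leaving out libraries 7 to 16, with 16 without replicate 2 of MV4-11 with DMSO. For SKNO-1 and Molm-14 the count of 4 became 14 with the mitochondrial covariate, and 4 to 8 on leaving out single libraries (8 without the same MV4-11 library). For SKNO-1 and MV4-11 the count of 3 became 11 with the covariate, 1 with no filter, and 0 to 6 on leaving out single libraries. It fell to 0 without replicate 1 or replicate 3 of SKNO-1 with DMSO, and 13 of 18 such fits moved it by over 1.5 times. The cause of these shifts was not tested. Some calls of single genes were lost. RIGI and DHX58 in MV4-11 lost theirs with a separate fit, and IRF2 in SKNO-1 with no filter. IL10RB and IFNGR1 in Molm-14, STAT2 and MAVS in MV4-11, and IRF9, IFNGR1, IFNGR2, DHX58, TBK1, CGAS and USP18 in SKNO-1 each lost their call in at least 1 alternative and in 3 or more of the fits without a library. The interferon genes could not be compared at this depth, and changes of genes under 1 CPM with DMSO rest on few reads.

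The labels number the replicates 1 to 3 in each group, but nothing says that a number marks a shared culture or day. Deviations from the group mean of same-numbered DMSO and RMC-4550 libraries correlated from −0.628 to 0.838 across genes, so the numbers were not taken as pairs, and not every library correlated best with its own number. With the replicate block the medians over the members were 1.82, 4.69 and 2.57, and the pathway counts 14, 11 and 17, in the same order of lines. The counts of differences were 8, 4 and 1, the last against 3 without the block.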
